A study of Mus musculus with 24 samples.

Results

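The genes described are the T cell costimulatory and checkpoint receptors and the checkpoint ligand Cd274, followed in whole skin over 6 groups of mice. The members were the probe sets of 10 listed gene symbols: the costimulatory receptors Cd28, Icos, Tnfrsf4 and Tnfrsf9, the inhibitory receptors Pdcd1, Ctla4, Lag3, Havcr2 and Tigit, and the inhibitory ligand Cd274. The annotation paired no probe set with Tigit, which was not analysed here, so 9 of the 10 genes were followed, with 14 probe sets, among 18193 genes measured on 24 arrays.

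All mice were female and RAG2-/-. RAG2 is needed to assemble antigen receptors, so these hosts form neither T nor B cells. Which cells, of the host or of the transferred splenocytes, carried the transcripts read in skin was not tested. Syngeneic mice had received Balb/c splenocytes. GVH-SSc mice, which model a graft-versus-host disease resembling scleroderma, were given B10.D2 splenocytes. They were treated with isotype antibody or with anti-IFNAR1, which binds 1 of the chains of the receptor for type I interferon. The titles name no antibody for the syngeneic mice, so a difference between isotype and syngeneic skin covers the graft and the antibody injection together. Shaved skin of the back was taken at day 14 or day 28, with 4 arrays in each group. The labels do not state whether each array is a different animal, so p-values reflect the spread among arrays, which may be technical.

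A T cell needs a signal beside its antigen receptor to respond fully, and receptors of the Cd28 and tumour necrosis factor receptor families supply it. Cd28 is present on resting T cells, while Icos, Tnfrsf4 and Tnfrsf9 are induced after activation. Activated T cells also induce inhibitory receptors that dampen the response, among them Pdcd1, Ctla4, Lag3 and Havcr2. Cd274, a ligand of Pdcd1, is carried by macrophages, dendritic cells, keratinocytes and other cells, and is known to be induced by interferons.

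Values are probe set intensities, and changes are differences of log2(intensity + 16) ± SE from limma, with 4 arrays a group. The offset of 16 shrinks the changes of dim genes. A gene was called where its p-value, adjusted over all 18193 genes, was under 0.05. Array medians lay between 14.84 and 17.71, so an intensity of 15 was about that of the middle probe set of an array. The log2 ratio of the 3' to the 5' Gapdh control probe sets is a measure of RNA integrity in which higher means more degraded. At day 14 its group mean was 1.34 ± 0.63 (SD, n = 4, 0.62 to 2.16) in isotype skin. It was 3.35 ± 1.35 (2.13 to 4.81) in anti-IFNAR1 skin at day 14 and 2.11 to 2.88 in the other groups. RNA integrity and antibody thus differed together at day 14, and their parts in that comparison cannot be fully told apart. The part of RNA integrity in the results was tested only by refitting with the ratio as a covariate and without the 5 arrays above 4. Skin markers such as keratins and collagens were bright on all arrays, with summed intensities of 132982 to 284663 over 10 genes. An array stood apart before any comparison: syngeneic replicate 1 at day 14 had the highest Cd274 value of all arrays and the highest Cd3d value of the syngeneic arrays.

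T cell number was read from Cd3d, a chain of the antigen receptor complex. In syngeneic skin Cd3d intensities were 20.3, 5.01, 4.98 and 6.24 at day 14 and 5.07, 3.22, 5.16 and 5.16 at day 28. Isotype skin had 374, 461, 533 and 477 at day 14 and 325, 334, 349 and 265 at day 28. Anti-IFNAR1 skin had 165, 98.0, 211 and 246 at day 14 and 80.6, 37.6, 43.0 and 49.6 at day 28. The groups did not overlap within a day: Cd3d was near background without the allogeneic graft, highest in isotype skin and between the others in anti-IFNAR1 skin. Cd3d rose in isotype against syngeneic skin by 4.28 ± 0.23 at day 14 (adjusted p = 2.2e-09) and by 4.01 ± 0.23 at day 28 (adjusted p = 3.4e-09). It fell by 1.34 ± 0.23 (adjusted p = 0.010) and by 2.31 ± 0.23 (adjusted p = 2.0e-05) in anti-IFNAR1 against isotype skin. The day 14 fall was not called when only the arrays compared were fitted (adjusted p = 0.087) or with an offset of 1 (adjusted p = 0.055). In bulk skin, fewer T cells and less RNA of a gene per T cell cannot be told apart from levels alone, which is why the members are also given relative to Cd3d further on. Of the 10 measured genes of a T cell list, 9 were higher in isotype than in syngeneic skin at each day, and 4 at day 14 and 9 at day 28 were lower in anti-IFNAR1 than in isotype skin.

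Isotype and syngeneic skin were compared first, to see which of these receptors accompany the allogeneic graft. At day 14, 8 of the 9 members rose, with a median change of 1.72 against −0.01 over all genes, and Tnfrsf4 was not called. At day 28, 8 of 9 rose, with a median of 1.34 against 0.00, and Ctla4 was not called. Over all genes, 5.29% were called higher at day 14 and 6.66% at day 28. Intensities lay higher with no overlap for 6 members at day 14 and 8 at day 28, as did those of 5.11% and 8.09% of all genes. With only the arrays compared in the fit, 2 members were called at day 14 (Cd28 and Pdcd1) and 6 at day 28, and without syngeneic replicate 4, 5 were called at day 14. The share of all genes called in these fits is not given, so lost calls are not shown to be particular to the members. Both kinds of receptor rose: 3 and 4 of the 4 costimulatory receptors, and 4 and 3 of the 4 measured inhibitory ones, at day 14 and day 28.

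**Figure D1:**
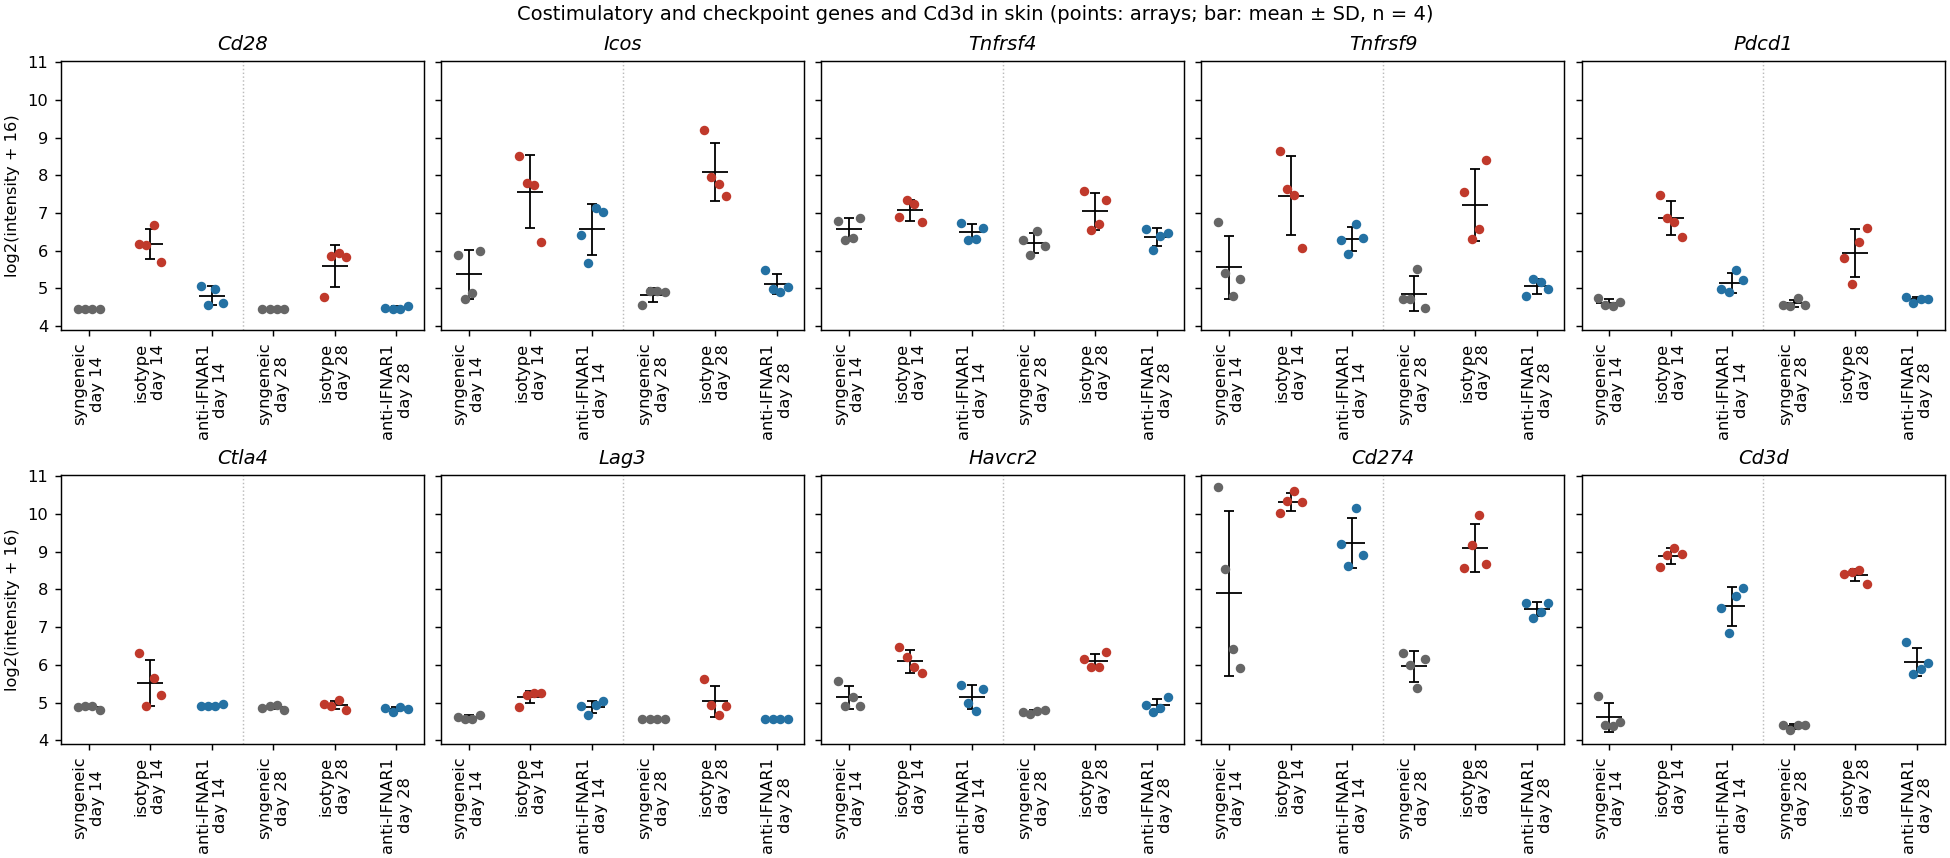
Log2(intensity + 16) of the 9 measured members and Cd3d in the 6 groups; points are arrays, and bars are the group mean ± SD of 4 arrays. Isotype skin has the highest mean at each day in every panel; Ctla4 and Lag3 stay low throughout, and syngeneic skin at day 14 spreads widest for Cd274.

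Anti-IFNAR1 and isotype skin were then compared, to see which receptors differ when type I interferon signalling is blocked in GVH-SSc mice. These comparisons use the same isotype arrays as those against syngeneic skin, so the 2 sets of changes are not independent. At day 14 the Gapdh ratio was also lowest in isotype and highest in anti-IFNAR1 skin by group mean. The day 14 fall of Havcr2 was not called without the arrays of high Gapdh ratio. At day 14, 3 of 9 members fell (Pdcd1, Cd28 and Havcr2), with a median over the members of −1.0 against 0.00 over all genes, where 0.654% of all genes were called lower. At day 28, 7 of 9 fell, all but Cd274 and Ctla4, with a median of −1.18 against 0.00 and 4.89% of all genes called lower. Intensities lay lower with no overlap for 4 members at day 14 and 7 at day 28, and for 7.51% and 6.85% of all genes. All 4 costimulatory receptors fell at day 28 and 1 at day 14, beside 3 and 2 of the 4 measured inhibitory receptors. With only the arrays compared in the fit, no member was called at day 14 (5 had an unadjusted p under 0.05) and 4 were called at day 28. The share of all genes called in that fit is again not given.

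**Figure D2:**
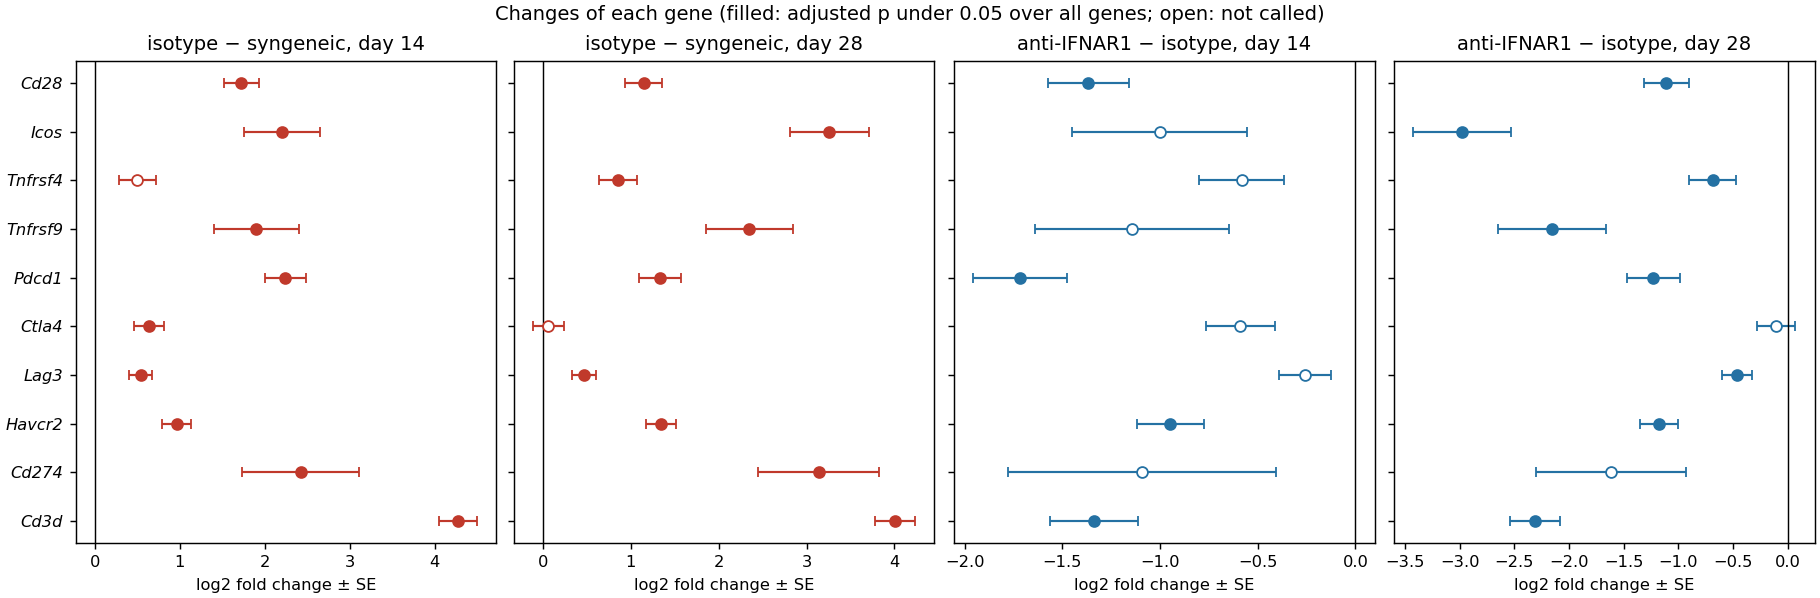
Log2 fold changes ± SE of each member and Cd3d in 4 comparisons; filled points have an adjusted p under 0.05 over all genes, open points do not, and each panel has its own scale. Cd3d has the largest rise in isotype skin at both days (4.28 and 4.01), while Icos has the largest fall in anti-IFNAR1 skin at day 28 (−2.98).

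Cd28, Ctla4 and Icos are neighbouring genes of chromosome 1. Cd28, the receptor for Cd80 and Cd86 that primes naive T cells, lay at background in syngeneic skin, with intensities of 5.77 to 6.04 on the 8 arrays. In isotype skin its values were 55.8, 55.3, 86.7 and 35.9 at day 14 and 11.2, 41.6, 45.1 and 41.1 at day 28. Anti-IFNAR1 skin had 17.4, 7.76, 15.6 and 8.44 at day 14 and 6.46, 5.97, 6.04 and 7.29 at day 28. Isotype skin lay above both other groups on every array at each day, and anti-IFNAR1 skin at day 28 was close to the syngeneic level. Cd28 rose by 1.72 ± 0.21 (adjusted p = 9.9e-05) and 1.15 ± 0.21 (adjusted p = 0.00082) in isotype skin. It fell by 1.37 ± 0.21 (adjusted p = 0.0059) and 1.11 ± 0.21 (adjusted p = 0.0017) with anti-IFNAR1. Its other probe set gave smaller changes in the same directions, a fall of 0.27 ± 0.09 at day 28 among them (adjusted p = 0.097).

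Icos, which binds Icosl and supports helper T cells, was the receptor with the largest rise at day 28. Syngeneic skin had intensities of 43.1, 10.5, 13.4 and 47.5 at day 14 and 7.42, 14.4, 14.5 and 14.1 at day 28. Isotype skin had 351, 207, 196 and 59.0 at day 14 and 573, 230, 201 and 158 at day 28. Anti-IFNAR1 skin had 68.8, 35.5, 126 and 115 at day 14 and 29.3, 15.5, 14.2 and 16.7 at day 28. At day 14 the anti-IFNAR1 arrays overlapped both other groups, while at day 28 every one of them lay below every isotype array and near the syngeneic level. The rise in isotype skin was 2.20 ± 0.45 at day 14 (adjusted p = 0.0045) and 3.26 ± 0.45 at day 28 (adjusted p = 9.4e-05). With anti-IFNAR1 the change was −1.0 ± 0.45 at day 14 (adjusted p = 0.26), and Icos fell by 2.98 ± 0.45 at day 28 (adjusted p = 0.00036). The difference between these 2 changes, −1.98 ± 0.63, did not pass the test (adjusted p = 0.17). Fitted with the isotype and syngeneic arrays of day 14 alone, the day 14 rise was not called (adjusted p = 0.13). Both other Icos probe sets rose in isotype skin at each day, by 1.69 to 2.52, and with anti-IFNAR1 at day 28 they changed by −2.49 and −1.74 (adjusted p = 0.0014 and 0.0019).

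Tnfrsf4 and Tnfrsf9 are receptors of the tumour necrosis factor family that sustain T cell division and survival once a response has started. Tnfrsf9 intensities in isotype skin were 381, 184, 163 and 51.4 at day 14 and 172, 64.0, 79.7 and 321 at day 28. Syngeneic skin had 91.7, 26.7, 12.0 and 22.1 at day 14 and 10.5, 10.4, 30.0 and 6.28 at day 28. With anti-IFNAR1 they were 62.1, 44.8, 88.2 and 65.0 at day 14 and 12.0, 22.4, 19.8 and 15.8 at day 28. Isotype skin overlapped both other groups at day 14 through its 1 array at 51.4, and overlapped neither at day 28. Tnfrsf9 rose by 1.90 ± 0.50 at day 14 (adjusted p = 0.016) and 2.35 ± 0.50 at day 28 (adjusted p = 0.0028), and fell with anti-IFNAR1 by 2.16 ± 0.50 at day 28 (adjusted p = 0.0067). The day 14 change with anti-IFNAR1 was −1.15 ± 0.50 (adjusted p = 0.25). The day 14 rise was not called without syngeneic replicate 3 or 4 or without isotype replicate 1 (adjusted p = 0.055, 0.052 and 0.069), nor without the arrays of high Gapdh ratio (adjusted p = 0.079). These values come from the brightest of 3 probe sets. Another read 3.16 to 3.24 on all arrays, and the third read 6.0 to 15.4 with no called change.

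Tnfrsf4 lay above background in every group. Its intensities were 42.9 to 101 over the syngeneic arrays, 78.2 to 175 over the isotype arrays and 49.4 to 91.2 over the anti-IFNAR1 arrays of both days. It rose at day 28 by 0.85 ± 0.22 (adjusted p = 0.010), with a day 14 change of 0.50 ± 0.22 (adjusted p = 0.14). With anti-IFNAR1 the changes were −0.58 ± 0.22 at day 14 (adjusted p = 0.18) and −0.68 ± 0.22 at day 28 (adjusted p = 0.042). The day 28 fall was not called under quantile normalization (adjusted p = 0.054), without the arrays of high Gapdh ratio (0.16), or without isotype replicate 1 or 4 or any single anti-IFNAR1 array (0.050 to 0.16). Tnfrsf18, the neighbouring gene of the same receptor family on chromosome 4, was not called in any of the 4 comparisons, with changes of −0.10 to 0.58.

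Pdcd1, the inhibitory receptor for Cd274 and Pdcd1lg2, was the member with the largest fall at day 14. Isotype skin had intensities of 161, 100, 92.8 and 66.0 at day 14 and 39.6, 18.6, 59.8 and 81.6 at day 28. Anti-IFNAR1 skin had 15.5, 13.8, 28.9 and 21.1 at day 14 and 11.5, 8.62, 10.4 and 10.3 at day 28. The 8 syngeneic arrays lay between 7.05 and 11. Isotype arrays lay above all arrays of both other groups at each day, and at day 28 the anti-IFNAR1 arrays were at the syngeneic level. Pdcd1 rose in isotype skin by 2.24 ± 0.24 (adjusted p = 2.5e-05) at day 14 and 1.34 ± 0.24 (adjusted p = 0.00080) at day 28. With anti-IFNAR1 it fell by 1.72 ± 0.24 (adjusted p = 0.0029) at day 14, and at day 28 it fell by 1.23 ± 0.24 (adjusted p = 0.0022). Fitted with only the arrays compared, these falls had adjusted p of 0.071 and 0.060. Pdcd1 was lower in isotype skin at day 28 than at day 14 by a change of −0.92 ± 0.24 that did not pass the test (adjusted p = 0.051).

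Havcr2 is an inhibitory receptor of T cells that macrophages and dendritic cells also carry. Its intensities in isotype skin were 72.5, 57.2, 45.3 and 38.9 at day 14 and 54.9, 45.9, 45.7 and 65.7 at day 28. In anti-IFNAR1 skin they were 28.2, 15.6, 11.4 and 25.3, then 14.6, 11.1, 12.7 and 19.7, and in syngeneic skin 14.1 to 31.4, then 9.98 to 11.9. Isotype skin was above the others at each day with no overlap, and the change of Havcr2 in isotype skin between days was 0.00 ± 0.17. Havcr2 rose by 0.96 ± 0.17 (adjusted p = 0.0020) and 1.35 ± 0.17 (adjusted p = 4.6e-05) in isotype skin. It fell by 0.95 ± 0.17 (adjusted p = 0.014) and 1.18 ± 0.17 (adjusted p = 0.00028) with anti-IFNAR1. The day 14 fall was not called without the arrays of high Gapdh ratio (adjusted p = 0.18), isotype replicate 1 (0.051) or anti-IFNAR1 replicate 2 (0.059), nor with only the arrays compared (0.096). A list of 15 macrophage and dendritic cell markers is given beside Havcr2. Their summed intensity ran from 96467 to 103988 in isotype skin at day 14, 58566 to 78148 in anti-IFNAR1 and 26583 to 47192 in syngeneic skin. At day 28 it ran from 40208 to 76646, 25804 to 39324 and 11117 to 27268. Of the 15, 10 and 11 were higher in isotype than in syngeneic skin and 1 and 7 lower with anti-IFNAR1, at day 14 and day 28, and 1 was lower in isotype than in syngeneic skin at day 14 (Flt3, −0.19 ± 0.06, adjusted p = 0.048). Of the dendritic cell markers, Itgax rose at day 28 by 2.46 ± 0.47 (adjusted p = 0.0013) and with anti-IFNAR1 it fell by 1.92 ± 0.47 (adjusted p = 0.010), and Xcr1 and Flt3 lay at background. How much of the Havcr2 signal came from those cells was not tested.

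Ctla4, which competes with Cd28 for Cd80 and Cd86 and is abundant in regulatory T cells, left background only in part of the isotype arrays at day 14. Its intensities there were 62.8, 14.2, 34.2 and 20.4, against 12.1 to 14.1 in syngeneic and 13.8 to 15.3 in anti-IFNAR1 skin. At day 28 all 12 arrays lay between 10.9 and 17.5. At day 14 the lowest isotype array lay within the anti-IFNAR1 range and barely above the syngeneic arrays, and at day 28 the groups overlapped. Ctla4 rose at day 14 by 0.64 ± 0.18 (adjusted p = 0.023), a call lost without syngeneic replicate 4 (adjusted p = 0.064) or isotype replicate 3 (0.066). Other changes were −0.59 ± 0.18 with anti-IFNAR1 at day 14 (adjusted p = 0.11) and 0.06 ± 0.18 in isotype skin at day 28 (adjusted p = 1). Foxp3, the factor that defines regulatory T cells, was near background on all arrays and was not called in any of the 4 comparisons.

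Lag3, a receptor for class II major histocompatibility molecules and Fgl1 and the neighbour of Cd4 on chromosome 6, stayed close to background. Isotype skin had intensities of 13.7, 20.5, 21.8 and 22.3 at day 14 and 33.2, 14.6, 9.35 and 14.2 at day 28. Syngeneic skin had 7.66 to 9.57 over both days, and anti-IFNAR1 skin had 14.2, 9.30, 14.4 and 17.2 at day 14 and 7.73 to 7.80 at day 28. The anti-IFNAR1 arrays at day 28 thus repeated the syngeneic background. Lag3 rose by 0.54 ± 0.14 (adjusted p = 0.014) and 0.46 ± 0.14 (adjusted p = 0.023), and fell with anti-IFNAR1 by 0.46 ± 0.14 at day 28 (adjusted p = 0.027). The day 14 change with anti-IFNAR1 was −0.26 ± 0.14 (adjusted p = 0.35). The day 28 rise was not called without the arrays of high Gapdh ratio (0.27, adjusted p = 0.070) or with only the arrays compared (0.19). The day 28 fall was not called without isotype replicate 1 (−0.27, adjusted p = 0.055) or without anti-IFNAR1 replicate 1, 3 or 4 (0.059 to 0.061).

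Cd274, the ligand that engages Pdcd1, was well above background in most arrays. Syngeneic skin had intensities of 1651, 354, 69.8 and 44.8 at day 14 and 63.0, 47.4, 25.6 and 55.4 at day 28. Isotype skin had 1018, 1277, 1541 and 1259 at day 14 and 360, 565, 981 and 393 at day 28. Anti-IFNAR1 skin had 575, 379, 1127 and 467 at day 14 and 183, 136, 152 and 182 at day 28. At day 28 the 3 groups did not overlap, with anti-IFNAR1 skin between the others. At day 14 they overlapped, and syngeneic replicate 1 exceeded every other array.

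Cd274 rose in isotype skin by 3.14 ± 0.69 at day 28 (adjusted p = 0.0036) and by 2.42 ± 0.69 at day 14 (adjusted p = 0.025). The day 14 call did not hold without syngeneic replicate 3 or 4 or isotype replicate 1, 2 or 3 (adjusted p = 0.051 to 0.10), without the arrays of high Gapdh ratio (0.12) or with only the arrays compared (0.27). Without syngeneic replicate 1 the day 14 rise was 3.36 (adjusted p = 0.00032). With anti-IFNAR1 the changes were −1.09 ± 0.69 at day 14 (adjusted p = 0.43) and −1.62 ± 0.69 at day 28 (adjusted p = 0.14). The day 28 change passed when only the arrays compared were fitted (adjusted p = 0.030), where the spread of the syngeneic day 14 arrays did not enter.

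Cd274 lies beside Pdcd1lg2 on chromosome 19, and the latter encodes the other ligand of Pdcd1. Pdcd1lg2 intensities were 308, 713, 477 and 281 in isotype skin at day 14 and 120, 114, 126 and 165 at day 28. With anti-IFNAR1 they were 239, 78.7, 363 and 193, then 17.6, 18.2, 7.59 and 10.8. In syngeneic skin they were 270, 51.2, 4.07 and 10.5, then 3.96 to 6.01. At day 14 anti-IFNAR1 skin overlapped both other groups, and syngeneic replicate 1, the highest of its group, lay just under the lowest isotype array. At day 28 the groups did not overlap. Pdcd1lg2 rose by 2.93 ± 0.58 (adjusted p = 0.0035) and 2.78 ± 0.58 (adjusted p = 0.0025), and fell with anti-IFNAR1 by 2.32 ± 0.58 at day 28 (adjusted p = 0.011). Its day 14 change with anti-IFNAR1, −1.04, was not called.

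Interferon gamma and genes it induces are given beside the ligands. The mean log2 level of 6 measured genes of that list (Ifng, Cxcl9, Cxcl10, Irf1, Gbp2 and Ciita) was 8.62, 11.10 and 10.16 in syngeneic, isotype and anti-IFNAR1 skin at day 14 and 6.95, 10.67 and 8.77 at day 28. Syngeneic arrays at day 14 ran from 7.17 to 10.58 for the list, with replicate 1 the highest. Of the 6 genes 5 were higher in isotype than in syngeneic skin at each day, and Cxcl10 (−3.38 ± 0.70) and Ifng (−2.46 ± 0.44) fell with anti-IFNAR1 at day 28, while none of the 6 was called with it at day 14 (2 unadjusted). Whether this list reads interferon gamma rather than type I interferon was not tested, nor was the part of interferon gamma in the Cd274 level.

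**Figure D3:**
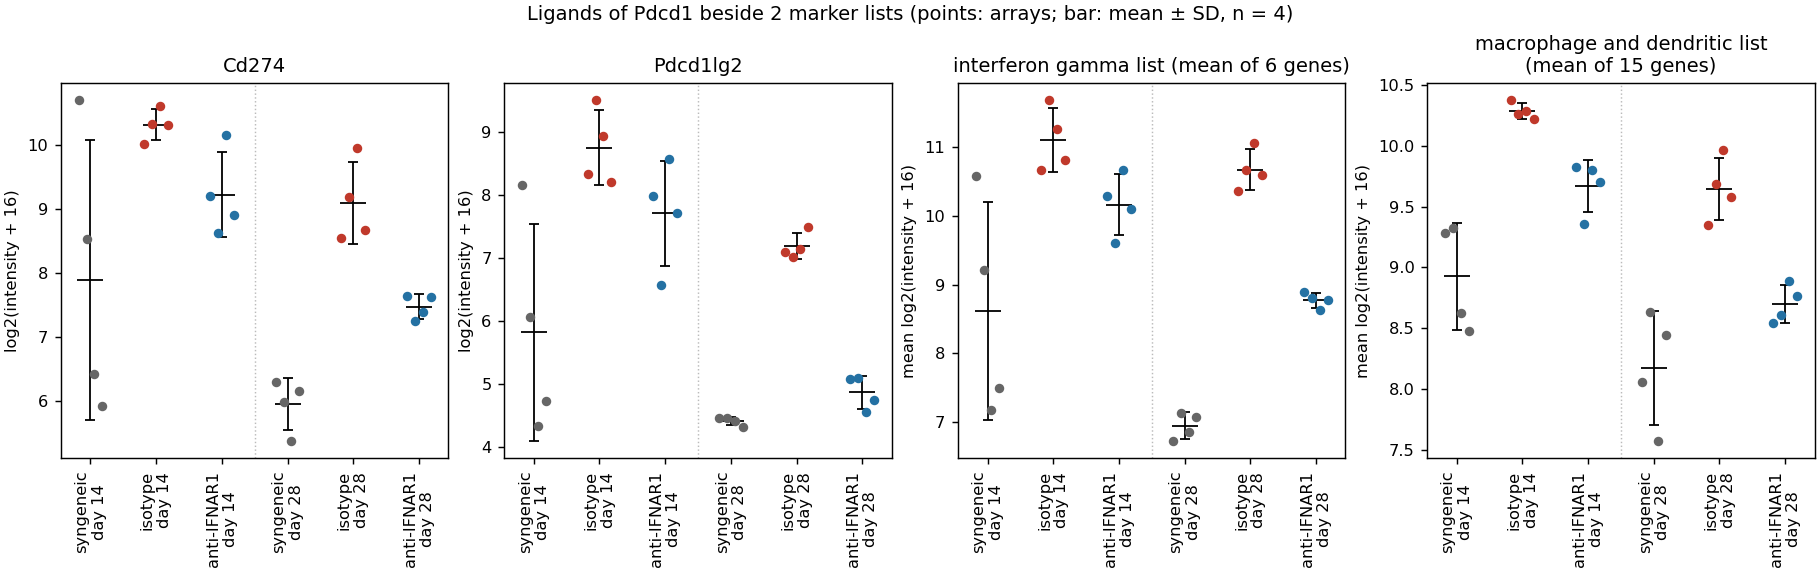
Log2(intensity + 16) of Cd274 and Pdcd1lg2, and array means of the interferon gamma list and of the macrophage and dendritic cell list; points are arrays, and bars are the group mean ± SD of 4 arrays. Syngeneic replicate 1 at day 14 lies at 10.58 in the interferon gamma list and is the highest array for Cd274.

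The promoter windows of Cd274 and its receptor Pdcd1 are shown because this ligand and receptor rose in the same skin. They run from 250 bases before to 50 bases after the RefSeq start (GRCm38.p6, 5′ to 3′ on the gene's strand). Capitals mark matches on either strand to the IRF-type motif GAAANNGAA or the GAS-type motif TTCNNNGAA, letters bound by interferon-activated factors. The Cd274 window is chr19:29367188-29367487 on the plus strand, and that of Pdcd1 is chr1:94052504-94052803 on the minus strand.
Cd274: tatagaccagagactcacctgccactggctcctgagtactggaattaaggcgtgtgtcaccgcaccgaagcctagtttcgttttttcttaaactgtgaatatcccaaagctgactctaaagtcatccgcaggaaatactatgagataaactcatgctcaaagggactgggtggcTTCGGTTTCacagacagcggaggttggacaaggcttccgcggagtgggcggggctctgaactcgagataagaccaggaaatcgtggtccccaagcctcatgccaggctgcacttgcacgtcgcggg
Pdcd1: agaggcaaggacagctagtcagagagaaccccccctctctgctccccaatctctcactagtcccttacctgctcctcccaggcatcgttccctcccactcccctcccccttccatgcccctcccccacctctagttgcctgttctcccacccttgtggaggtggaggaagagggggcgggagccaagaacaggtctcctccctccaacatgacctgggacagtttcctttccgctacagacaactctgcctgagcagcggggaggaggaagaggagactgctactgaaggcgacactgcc
The Cd274 window held 1 IRF-type match, 76 bases before the start and on the opposite strand, and no GAS-type match, while the Pdcd1 window held neither. Of 32851 mouse promoters of this length, 8.56% held the IRF-type and 8.298% the GAS-type letters. Promoters of 7 of the 10 members were in the table. Those of Ctla4 and Tnfrsf4 also held 1 IRF-type match each, and the second of 2 Tnfrsf9 promoters held 1 GAS-type match. The core letters GGAAA, known from binding by NFAT factors downstream of the antigen receptor, were counted on either strand. They occurred 2 times in each printed window and in 61.341% of all promoters. Both matches in the Pdcd1 window lie on the opposite strand and are printed as TTTCC.

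Anti-IFNAR1 and syngeneic skin were compared directly, with no member called at either day. At day 14, 1.12% of all genes were called, and 2610 of 18193 had an unadjusted p under 0.05 in limma. Among these were 2 members: Icos (1.2 ± 0.45, adjusted p = 0.21) and Pdcd1 (0.53 ± 0.24, adjusted p = 0.32). Pdcd1 and Cd28 (0.35 ± 0.21, adjusted p = 0.48) lay above the syngeneic arrays with no overlap, as did 1.62% of all genes. At day 28, 0.033% of all genes were called, and 370 genes had an unadjusted p under 0.05. Among these was 1 member, Cd274 (1.52 ± 0.69, adjusted p = 1). Its groups did not overlap, as for 1.34% of all genes in that direction. Cd274 at day 14 changed by 1.33 ± 0.69 (adjusted p = 0.40), and by 2.27 without syngeneic replicate 1 (adjusted p = 0.035). Over these same arrays Cd3d was called higher in anti-IFNAR1 skin, by 2.94 ± 0.23 at day 14 (adjusted p = 1.5e-06) and 1.70 ± 0.23 at day 28 (adjusted p = 0.0085). The day 14 call was lost with only the arrays compared (adjusted p = 0.061). The changes of the 8 receptors at day 28 ran from −0.04 to 0.28.

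Between day 14 and day 28, no member was called in any group. Of all genes, 0.077% were called in syngeneic, 2.2% in isotype and 0.555% in anti-IFNAR1 skin. Unadjusted p-values under 0.05 were found for 2, 3 and 4 members in these groups. The same held for 1652, 2668 and 2368 of all 18193 genes. In anti-IFNAR1 skin, 7 of 9 members lay lower at day 28 with no overlap, as did 4.05% of all genes, among them Icos (−1.46 ± 0.45, adjusted p = 0.15), Tnfrsf9 (−1.26 ± 0.50, adjusted p = 0.28) and Cd274 (−1.75 ± 0.69, adjusted p = 0.27). Cd3d fell there by 1.48 ± 0.23 (adjusted p = 0.013), a call lost with only the arrays compared (adjusted p = 0.10), without the arrays of high Gapdh ratio (−1.10, adjusted p = 0.40) and without anti-IFNAR1 replicate 3 or 4 of day 14 (0.050 and 0.076). In isotype skin Cd274 was the 1 member with no overlap between days (−1.22 ± 0.69, adjusted p = 0.44), beside 5.02% of all genes lower at day 28 with none, while Icos had a change of 0.52 ± 0.45 (adjusted p = 0.71). The difference between days in the isotype against syngeneic change was called for 0.044% of genes and no member. That in the anti-IFNAR1 against isotype change was called for 0.0715% and no member. Unadjusted p-values under 0.05 were found for 2 and 1 members in these tests, and for 1775 and 2468 of 18193 genes. So the larger number of members called at day 28 with anti-IFNAR1 was not shown to be a difference between days.

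Each member was also read relative to Cd3d, by subtracting the log2 level of Cd3d on the same array, so that a value that does not change means that gene and Cd3d changed alike. Levels of different probe sets are not comparable, so only differences between groups are read. Because Cd3d itself changed, most genes of the array shifted with it: 87.4% of genes were called relative to Cd3d in anti-IFNAR1 against isotype skin at day 14 and 97.8% at day 28. A member already at background cannot fall further, so a rise relative to Cd3d there is bounded by the background. In syngeneic skin Cd3d was itself at background. There 9 members were called lower relative to it in isotype skin at day 14 and 7 at day 28, where 99.6% and 99.4% of all genes were called.

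At day 14, Cd28, Icos, Tnfrsf9, Pdcd1, Havcr2 and Cd274 were not called relative to Cd3d between anti-IFNAR1 and isotype skin. Cd28 had a difference of −0.03 ± 0.30 (adjusted p = 0.93), Pdcd1 of −0.38 ± 0.32 (0.27) and Icos of 0.34 ± 0.39 (0.41). Tnfrsf9 had 0.19 ± 0.49 (adjusted p = 0.71), Havcr2 0.39 ± 0.27 (0.17) and Cd274 0.25 ± 0.55 (0.67). Lag3 (1.08 ± 0.25, adjusted p = 0.00033), Tnfrsf4 (0.76 ± 0.28, adjusted p = 0.014) and Ctla4 (0.75 ± 0.30, adjusted p = 0.023) were higher relative to Cd3d, as were 15885 of 18192 genes. Relative to Cd3d, 2 of the 9, Lag3 and Tnfrsf4, lay higher with no overlap, as did 75.9% of all genes. With an offset of 1, Ctla4 (0.49, adjusted p = 0.29) and Tnfrsf4 (0.74, adjusted p = 0.067) were not called. With the mean of the 10 T cell genes in place of Cd3d, Pdcd1 was lower by −0.76 (adjusted p = 0.021), and Ctla4 and Tnfrsf4 were not called.

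At day 28, 6 of 9 members were higher relative to Cd3d in anti-IFNAR1 skin, as were 17744 of 18192 genes, and 3 members were not called. The 6 were Ctla4 (2.21 ± 0.30), Lag3 (1.85 ± 0.25), Tnfrsf4 (1.63 ± 0.28), Cd28 (1.2 ± 0.30), Havcr2 (1.14 ± 0.27) and Pdcd1 (1.08 ± 0.32), with adjusted p of 0.0026 or less. All 6 were at or near their syngeneic levels in that group, with differences from syngeneic skin of −0.04 to 0.17. With the mean of the T cell list in place of Cd3d, Cd28, Havcr2 and Pdcd1 were not called (0.26 to 0.38). With an offset of 1, Cd28 (0.53, adjusted p = 0.25) and Pdcd1 (0.62, adjusted p = 0.16) were not called. Tnfrsf9 differed by 0.16 ± 0.49 (adjusted p = 0.75) and Cd274 by 0.70 ± 0.55 (adjusted p = 0.22).

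Icos was the 1 member with a lower mean relative to Cd3d at day 28, by −0.67 ± 0.39 (adjusted p = 0.10). The log2 level of Icos less that of Cd3d ran from −0.75 to 0.79 on the isotype arrays and from −1.09 to −0.77 on the anti-IFNAR1 arrays, with no overlap, as for 0.181% of all genes in that direction. The fall passed the test with an offset of 1 (−1.11, adjusted p = 0.030) and with the mean of the T cell list in place of Cd3d (−1.49, adjusted p = 0.00060). The mean log2 level of that list was 7.75 in isotype and 6.26 in anti-IFNAR1 skin, a smaller fall than that of Cd3d (2.31 ± 0.23). Any fall read against the list is larger for that reason. Its gene Thy1 had intensities of 1909 or more in every group and changed by −0.48 ± 0.22 (adjusted p = 0.18). In isotype skin Icos relative to Cd3d changed by 1.03 ± 0.39 from day 14 to day 28 (adjusted p = 0.10). No member was called in that comparison, where 3.68% of genes were. An unadjusted p under 0.05 was found there for 1 member and for 8741 of 18192 genes. In anti-IFNAR1 skin Icos relative to Cd3d changed by 0.02 ± 0.39 between days (adjusted p = 0.95). The 6 members called between days in that skin were again Cd28, Ctla4, Havcr2, Lag3, Pdcd1 and Tnfrsf4. All were higher relative to Cd3d at day 28, beside 95.9% of all genes called.

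**Figure D4:**
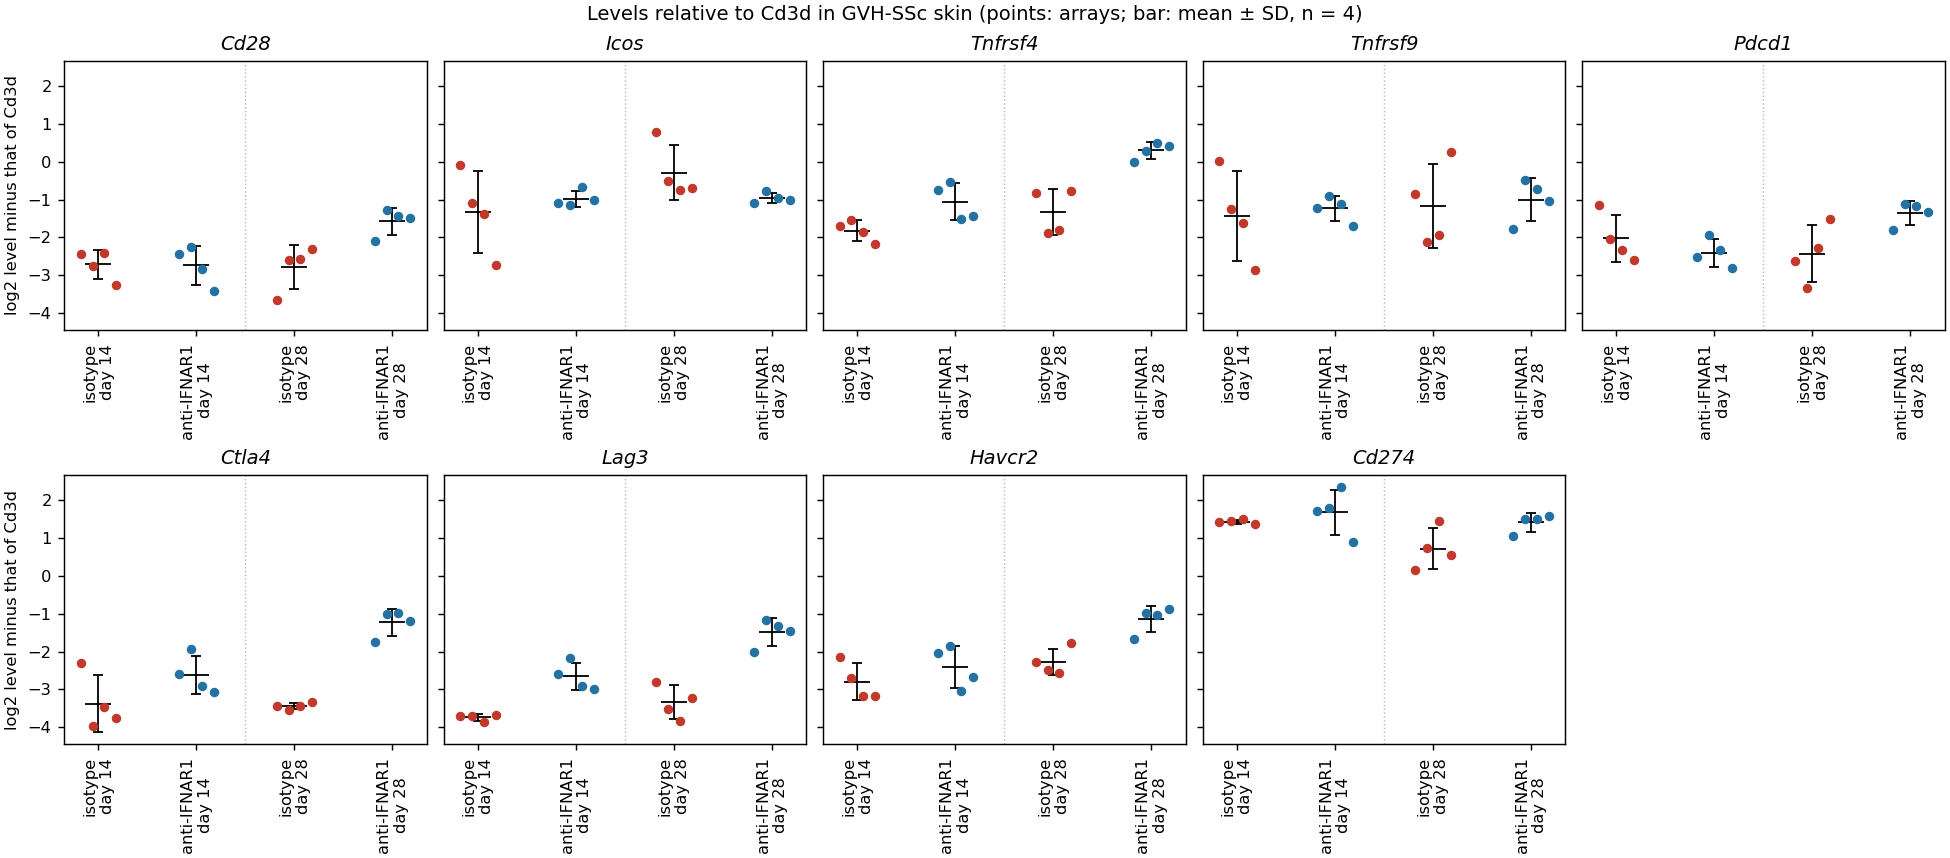
Log2 level of each member less that of Cd3d on the same array, in GVH-SSc skin; points are arrays, and bars are the group mean ± SD of 4 arrays. Icos in anti-IFNAR1 skin stays between −1.14 and −0.68 at both days, while genes at background, such as Ctla4 and Lag3, are higher at day 28.

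The ligands of these receptors were read as a list, of which 12 of 13 genes were measured. At day 14, 3 were higher and 1 lower in isotype than in syngeneic skin. Pdcd1lg2, Cd86 (0.89 ± 0.26, adjusted p = 0.030), a ligand of Cd28 and Ctla4, and Lgals9 (2.34 ± 0.65, adjusted p = 0.023), a ligand of Havcr2, rose. Icosl, the ligand of Icos, fell by 0.67 ± 0.22 (adjusted p = 0.046). At day 28, Pdcd1lg2 rose and Nectin3, an adhesion molecule that Tigit binds, fell by 2.96 ± 0.50 (adjusted p = 0.00052). With anti-IFNAR1 none was called at day 14, where Lgals9 changed by −2.42 ± 0.65 (adjusted p = 0.080). At day 28 Pdcd1lg2 fell and Nectin3 rose by 2.43 ± 0.50 (adjusted p = 0.0034). Cd80, Tnfsf4 and Tnfsf9, ligands of Cd28, Tnfrsf4 and Tnfrsf9, were not called in any of the 4 comparisons, with changes of −0.59 to 0.58. The median over the 12 ligands was 0.19 and 0.03 in isotype against syngeneic skin, and −0.37 and −0.04 with anti-IFNAR1. Of all 18193 genes, 962 were called higher and 1510 lower in isotype than in syngeneic skin at day 14. At day 28 these were 1211 and 1762. With anti-IFNAR1, 29 were called higher and 119 lower at day 14, and 1532 and 890 at day 28. A single call among the 12 ligands is not shown to exceed these shares.

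Among 18 other costimulatory and inhibitory receptors, 8 were higher and 1 lower in isotype than in syngeneic skin at day 14, and 5 higher at day 28. Cd2, an adhesion receptor of T cells, rose by 1.63 ± 0.35 and 3.03 ± 0.35, and Cd5, which restrains antigen receptor signalling, by 1.54 ± 0.25 at both days. Cd27, Slamf1, Slamf6 and Tnfrsf14 rose at day 14, by 0.38 to 0.92. With anti-IFNAR1, Cd5 fell by 1.30 ± 0.25 and Tnfrsf14 by 0.40 ± 0.08 at day 14. At day 28 Cd2 fell by 1.55 ± 0.35, Cd5 by 1.34 ± 0.25, Entpd1 by 0.98 ± 0.23, Cd6 by 0.59 ± 0.16 and Cd96 by 0.53 ± 0.14. The list medians were 0.40 and 0.21, then −0.23 and −0.15, against 0.00 or −0.01 over all genes. Of all genes, 5.29% and 6.66% were called higher in isotype than in syngeneic skin, and 0.654% and 4.89% lower with anti-IFNAR1.

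Transcription and signalling factors tied to T cell activation or exhaustion, 17 of 18 measured, were read in the same way. Batf, which cooperates with activation signals in effector T cells, rose by 1.96 ± 0.23 and 2.07 ± 0.23 and fell with anti-IFNAR1 by 1.33 ± 0.23 and 1.85 ± 0.23, called in all 4 comparisons. Eomes and Tbx21, which drive cytotoxic T cells, rose at day 28 by 1.84 ± 0.39 and 1.40 ± 0.35 and fell with anti-IFNAR1 by 1.5 ± 0.39 and 1.16 ± 0.35. Tox, a factor of exhausted T cells, was not called in any of them, with changes of −0.19 to 0.23. In all, 2 and 4 of the 17 were higher and 1 and 1 lower in isotype than in syngeneic skin, and 1 and 4 lower with anti-IFNAR1, at day 14 and day 28. Of all 18193 genes, 5.29% and 6.66% were called higher and 1510 and 1762 genes lower in isotype skin. With anti-IFNAR1, 0.654% and 4.89% of all genes were called lower. Eomes is also carried by natural killer cells, and 5 of 6 listed markers of those cells were measured. In isotype against syngeneic skin 2 were higher at day 14, Klrc1 (2.10 ± 0.42) and Klrk1 (1.41 ± 0.24), and 2 at day 28, Klrc1 (2.08 ± 0.42) and Eomes. With anti-IFNAR1 Klrk1 fell by 1.2 ± 0.24 at day 14, and Klrc1 fell by 1.32 ± 0.42 at day 28 beside Eomes. Ncr1 and Klra8 were not called in any of the 4 comparisons, with intensities of 20.3 or less on all arrays. The summed intensity of the 5 ran from 36.5 to 252 in syngeneic, 284 to 342 in isotype and 88.2 to 157 in anti-IFNAR1 skin at day 14, and from 30.7 to 38.7, 157 to 237 and 44.3 to 73.4 at day 28. Klrc1 and Klrk1 are receptors that cytotoxic T cells carry too, and the part of natural killer cells in these changes was not tested.

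The genes whose pattern was most like that of each member were found as the smallest root-mean-square distance between the 6 group means, each centred on its own average, among 3989 genes. These distances describe 6 points that share arrays. Nearest to Icos was Cd4, the helper T cell co-receptor, at 0.16, followed by Ccl4 (0.21) and Adam8 (0.22). Pdcd1 lay nearest to Cd8b1, a chain of the cytotoxic T cell co-receptor, at 0.093, then Serpina3n (0.14) and Lgmn (0.15). Tnfrsf9 was nearest to Cd69, an early activation marker, at 0.11, then Batf (0.14) and Sting1 (0.15). Cd28 was nearest to Vmp1 (0.064), Rab20 (0.082) and Trbv1 (0.093). For Havcr2 these were Car13 (0.059), Ecscr (0.062) and Apoc2 (0.075). Cd274 was nearest to the interferon-induced guanylate-binding proteins Gbp7 (0.16) and Gbp3 (0.18), then Slc15a3 (0.19). The group means of Ctla4, Lag3 and Tnfrsf4 spanned less than 1 on the log2 scale, and their nearest genes are not named.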

How the data were processed

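Total RNA of snap-frozen skin was labelled with biotin and hybridised to Affymetrix arrays, per the labels' protocols. The deposited values are linear probe set intensities. The summarisation, background correction and normalization behind these intensities are not given in the sources used, and no further normalization was applied. The arrays hold 45101 probe sets, among them 64 controls. The annotation gave 1 gene symbol to 34945, several to 932 and did not list 9160. Symbols were updated through gene identifiers for 34741 probe sets, and 204 kept the annotation's symbol. Each gene was read from its probe set of highest mean, which gave 18193 genes. Log2(intensity + 16) was fitted with limma 3.58.1 in R 4.3.3 as a mean per group over all 24 arrays (18 residual degrees of freedom, prior 0.71), with two-sided p-values adjusted by Benjamini-Hochberg over all genes. For values relative to Cd3d, its log2 level was subtracted from every gene on each array before a refit. The fit was tested on simulated data.

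The members, gene lists and comparisons were chosen with earlier results of these data known, so no pattern here is independent support for those results. The rule for named genes took all members and Cd3d, every ligand of the receptors, the 4 called genes of largest absolute change in each other list and comparison, and the 3 nearest genes of each member by distance. The text names part of these, and some further list genes (called ones, and markers given beside a result) chosen after their values were seen. No 2 arrays were identical. The arrays' number limits the precision. Same-numbered arrays of different groups showed no common deviation: the median correlation of deviations over 60 pairs was −0.033 (−0.62 to 0.57). Replicate numbers were not used to pair samples in the main fit. These correlations cannot exclude that same-numbered arrays shared an origin. Alternatives were quantile normalization, centred medians, removal of dim genes, the mean of all probe sets, only the arrays compared, an offset of 1, a replicate block, the Gapdh ratio as a covariate, no arrays of high Gapdh ratio, the T cell list in place of Cd3d, and each array left out in turn. Figures were drawn with matplotlib 3.10.9. Promoter sequences are RefSeq's. No coordinates of probes were used.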

Additional observations from a re-analysis of the deposited data

Results flagged for a closer look

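In 5 of 60 groups of 4 arrays tested over the members and Cd3d, 1 array lay far from the others by Dixon's test; chance flags about 1 in 20 groups. Cd28 in isotype skin at day 28 was lowest on replicate 1, at an intensity of 11.25 against 41.15 to 45.1 on the others. Icos in syngeneic skin at day 28 was lowest on replicate 1, at 7.42 against 14.11 to 14.52. In the same group Pdcd1 was highest on replicate 3, at 11.03 against 7.22 to 7.69, and Cd3d was lowest on replicate 2, at 3.22 against 5.07 to 5.16. Cd3d in syngeneic skin at day 14 was highest on replicate 1, at 20.34 against 4.98 to 6.24. The syngeneic arrays concerned lie near background. Replicate 1 of isotype skin at day 28, the array low in Cd28, was the highest of its group for Icos (573) and Lag3 (33.2). No change of a member differed between days by the test of that difference.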

How the results depend on the processing

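Of the single-gene values under alternative settings, 2780 kept direction and side of the threshold, 75 lost a call, 33 gained one and 3 changed sign. Relative to the mean of the T cell list in place of Cd3d, Cd274 in isotype against syngeneic skin at day 14 turned from −1.86 to 0.16 (adjusted p = 0.80). At day 28 Icos turned from −0.75 to 1.07 (adjusted p = 0.0078) and Tnfrsf9 from −1.66 to 0.17 (adjusted p = 0.72). The T cell list had median rises of 2.38 and 2.51 in these comparisons, against 4.28 and 4.01 for Cd3d.

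Counts of called members moved as follows. They are given without the share of all genes called under each setting, so a lower count need not be particular to the members. In isotype against syngeneic skin at day 14 (8), 2 were called with only the arrays compared, 5 without the arrays of high Gapdh ratio, and 5 to 8 with each array left out, 5 without syngeneic replicate 4. In anti-IFNAR1 against isotype skin, only the arrays compared gave 0 of 3 at day 14 and 4 of 7 at day 28. In anti-IFNAR1 against syngeneic skin at day 14 (0), leaving out each array gave 0 to 1, Cd274 without syngeneic replicate 1. Between days in isotype skin (0), the mean of all probe sets gave 2, the Gapdh covariate 1 and leaving out each array 0 to 1. Relative to Cd3d, isotype against syngeneic skin at day 14 (9) gave 5 with the T cell list. Anti-IFNAR1 against isotype skin at day 14 (3) gave 1 with only the arrays compared, 1 with an offset of 1 and 1 to 4 with each array left out. Isotype skin between days (0) gave 1 with only the arrays compared and 0 to 1 with each array left out. Removing genes under the median level left Cd274 alone of the 9 members by construction. It then gave 1, 1, 0 and 0 called members in the 4 main comparisons, and relative to Cd3d 1 and 0 in isotype against syngeneic skin, 0 and 0 in anti-IFNAR1 against isotype skin, and 0 between days in anti-IFNAR1 skin. With a replicate block the 4 main counts were 8, 8, 3 and 7, as without it, and 2 of 24 arrays correlated best with their own number. Low intensity limits Ctla4, Lag3 and Cd28, whose lower levels are set by background.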

Other observations

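Some genes of the lists went against the rest. Cd244a, a receptor of natural killer and cytotoxic T cells, fell in isotype against syngeneic skin at day 14 by 1.54 ± 0.45 (adjusted p = 0.029) while 8 of the 18 receptors of its list rose. Ikzf2, a factor of regulatory T cells that other cells also carry, fell by 1.36 ± 0.37 at day 14 (adjusted p = 0.020) and by 1.19 ± 0.37 at day 28 (adjusted p = 0.033). Of all 18193 genes, 1510 and 1762 were called lower in isotype than in syngeneic skin at these days. Nectin3 had intensities of 885, 787, 565 and 852 in syngeneic skin at day 28, 48.1, 58.6, 261 and 58.2 in isotype skin and 344, 472, 631 and 708 in anti-IFNAR1 skin, so isotype skin lay below both others on every array.

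Fgl1, a ligand of Lag3, read 4794 on isotype replicate 3 at day 14 and between 4.47 and 28.9 on all other arrays. Cd22, a B cell receptor, rose in isotype against syngeneic skin by 2.00 ± 0.27 at day 14 (adjusted p = 0.00029) and 0.86 ± 0.27 at day 28 (adjusted p = 0.032), while the other 4 B cell markers measured were not called at either day. Klrc1, an inhibitory receptor of natural killer and cytotoxic T cells, rose by 2.10 ± 0.42 and 2.08 ± 0.42 and fell with anti-IFNAR1 at day 28 by 1.32 ± 0.42 (adjusted p = 0.041).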
